A study of Mus musculus with 10 samples.

Results

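The genes described here are the 9 that encode the enzymes of mammalian DNA methylation and demethylation and their closest partners, *Tet1*, *Tet2*, *Tet3*, *Dnmt1*, *Dnmt3a*, *Dnmt3b*, *Dnmt3l*, *Uhrf1* and *Tdg*. They were chosen by name, and every DamID-seq peak of ZFP266 that overlapped one of them or lay within 50 kb of it was taken from the deposited list. This gave 13 of the 15119 peaks, beside 21000 protein-coding genes that were counted the same way. The peaks come from mouse embryonic fibroblasts (MEFs) of the 129 strain, wild-type for *Zfp266*, nucleofected with the plasmid PGK-mO-Dam-Zfp266 in 5 samples (Dam-ZFP266) and with PGK-mO-Dam in 5 samples (Dam only), and collected 48 h later as sorted fluorescent cells. In both plasmids the PGK promoter drives mOrange, and the bacterial adenine methyltransferase Dam, alone or fused to ZFP266, is made only by translation reinitiation behind it, so the fusion protein came from a plasmid and not from the *Zfp266* gene itself. Dam marks GATC sequences near the fusion protein, and the Dam only samples give the background of accessible chromatin. The authors called the peaks over all 10 samples at once, so each value below has no replicate error and no difference was tested. The files hold no expression values, so the labelled cell type could not be checked against marker genes.

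DNA methylation is written and erased by a small set of proteins. DNMT3A and DNMT3B place new methyl groups on cytosine, DNMT3L is a catalytically inactive partner that stimulates them, and DNMT1 copies the pattern to the daughter strand after UHRF1 has recognised hemimethylated DNA. The TET dioxygenases oxidise methylated cytosine, and the glycosylase TDG removes the later oxidation products so that base excision repair can restore an unmethylated base. Fibroblasts keep a somatic methylation pattern that is rewritten when they are reprogrammed to pluripotency. ZFP266 is a KRAB zinc finger protein, a family whose members often bind transposable elements. B1 SINEs are short mouse retrotransposons that descend from 7SL RNA. AP-1 is the JUN and FOS family of transcription factors, active in fibroblasts, with the core motif TGACTCA on one strand and TGAGTCA on the other.

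The sequences that the peak content turns on are shown first. A B1 consensus of 140 bp was derived from GRCm38 itself, and its capitals mark the 14 bases shared with 7SL RNA that served as the seed. In the B1 copies under it, written along their own strand, capitals mark bases that differ from the consensus. Consensus bases missing from a copy leave no mark, and the copy of Dnmt3b peak 1 lacks 5. These copies are the ones with the highest identity in 6 of the peaks. The stretch of the *Tet1* intron is on the plus strand, with its AP-1 core motifs in capitals, and its opening 140 bases are a B1 on the minus strand.
B1 consensus: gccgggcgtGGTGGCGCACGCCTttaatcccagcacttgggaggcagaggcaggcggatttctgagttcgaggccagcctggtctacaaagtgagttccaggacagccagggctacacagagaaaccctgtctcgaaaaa
Tet1 peak 1, chr10:62885768-62886051: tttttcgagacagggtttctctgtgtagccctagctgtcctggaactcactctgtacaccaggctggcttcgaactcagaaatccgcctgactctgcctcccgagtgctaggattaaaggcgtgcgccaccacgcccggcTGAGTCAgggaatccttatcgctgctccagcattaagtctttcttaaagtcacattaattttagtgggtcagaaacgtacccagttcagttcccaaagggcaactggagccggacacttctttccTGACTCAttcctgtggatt
Tet1 peak 2, B1 at chr10:62846718-62846857, plus strand: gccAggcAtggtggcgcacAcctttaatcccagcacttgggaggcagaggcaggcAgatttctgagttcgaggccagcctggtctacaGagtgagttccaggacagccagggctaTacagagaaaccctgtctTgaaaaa
Tet1 peak 3, B1 at chr10:62790643-62790782, plus strand: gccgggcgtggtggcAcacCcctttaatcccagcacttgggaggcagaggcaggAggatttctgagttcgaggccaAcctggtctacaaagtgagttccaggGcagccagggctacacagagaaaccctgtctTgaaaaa
Dnmt1 peak 2, B1 at chr9:20954835-20954967, plus strand: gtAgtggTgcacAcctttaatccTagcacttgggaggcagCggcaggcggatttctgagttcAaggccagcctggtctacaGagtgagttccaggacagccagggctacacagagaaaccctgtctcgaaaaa
Dnmt3a peak 2, B1 at chr12:3830991-3831104, plus strand: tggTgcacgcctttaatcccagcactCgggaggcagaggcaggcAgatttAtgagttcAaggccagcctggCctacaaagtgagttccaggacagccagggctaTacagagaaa
Dnmt3b peak 1, B1 at chr2:153713886-153714012, minus strand: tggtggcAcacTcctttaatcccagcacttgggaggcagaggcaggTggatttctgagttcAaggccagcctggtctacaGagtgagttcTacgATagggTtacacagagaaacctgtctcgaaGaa
Uhrf1 peak 1, B1 at chr17:56265677-56265809, minus strand: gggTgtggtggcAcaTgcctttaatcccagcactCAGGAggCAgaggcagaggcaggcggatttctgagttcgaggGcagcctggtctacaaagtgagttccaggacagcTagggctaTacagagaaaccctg
In the *Tet1* stretch, the TGAGTCA motif began at the base next to the end of the B1.

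The remaining AP-1 core motifs lay in the peaks of *Dnmt3b* and *Uhrf1*, and each is shown in its 31 bases of GRCm38 on the plus strand with the motif in capitals.
Dnmt3b peak 1, chr2:153714215-153714245: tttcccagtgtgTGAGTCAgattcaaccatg
Dnmt3b peak 2, chr2:153721358-153721388: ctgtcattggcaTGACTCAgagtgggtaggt
Dnmt3b peak 2, chr2:153721748-153721778: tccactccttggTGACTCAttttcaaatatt
Uhrf1 peak 1, chr17:56266097-56266127: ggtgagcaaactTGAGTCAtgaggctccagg
Uhrf1 peak 1, chr17:56266124-56266154: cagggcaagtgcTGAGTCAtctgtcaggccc
Uhrf1 peak 1, chr17:56266535-56266565: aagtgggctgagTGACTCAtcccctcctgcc
None of the 8 motifs in the 13 peaks lay inside a B1 SINE.

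Peaks lay inside 4 of the 9 genes, namely *Tet1*, *Tet3*, *Dnmt1* and *Dnmt3a*. Over all protein-coding genes the share with a peak in the gene was 17.1%. Long genes hold peaks more often, and the 4 genes with a peak are long. In the length decile of *Tet1*, *Tet2*, *Tet3* and *Dnmt3a* 37.7% of genes had a peak inside, in that of *Dnmt1* and *Dnmt3b* 22.0%, and in that of *Dnmt3l*, *Uhrf1* and *Tdg* 13.1%. These shares add up to 2.34 genes for the 9, beside the 4 observed. Within 50 kb, 7 of the 9 genes had a peak, against 49.7% of all protein-coding genes and a sum of 5.04 genes from the same length deciles. The 2 genes without one were *Tet2* and *Dnmt3l*. *Tet1*, *Tet3* and *Dnmt3a* each held 2 peaks, and 6.89% of protein-coding genes of all lengths held 2 or more. These genes are in the long decile in which 37.7% had a peak inside, and the share with 2 or more was not taken by length. These counts lie above the shares of all genes, and with 9 genes the gap was not tested.

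**Figure D1:**
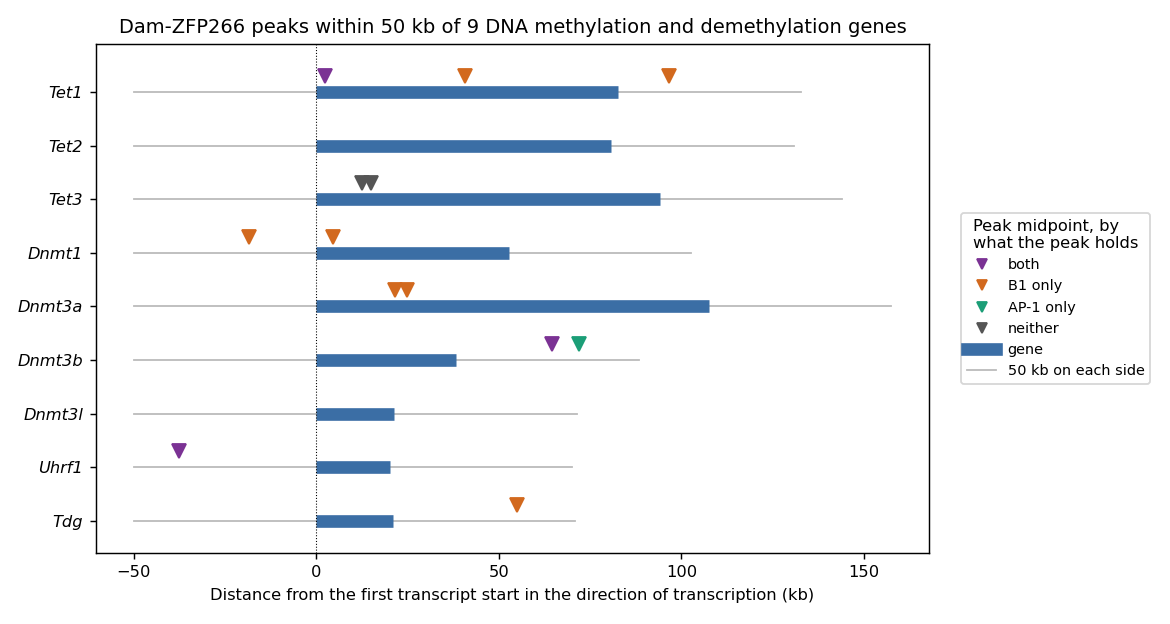
Positions of the 13 peaks around the 9 genes, with distance in kb from the first curated transcript start in the direction of transcription on the x axis and 1 gene per row. Bars are genes, grey lines reach 50 kb to each side, and triangles are peak midpoints coloured by whether the peak holds a B1 SINE, an AP-1 core motif, both or neither. *Tet1* has 3 peaks, *Tet2* and *Dnmt3l* have none, and 7 of the peaks lie inside a gene.

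*Tet1* (chr10:62804570-62887324, minus strand, GRCm38) had 3 peaks within 50 kb, the most among the 9 genes, or 1.64 peaks per 100 kb of gene and flanks against a mean of 0.815 over all protein-coding genes. Peak 1 (chr10:62883590-62886155, 2566 bp) lay in intron 1 of the 13-exon transcript NM_001253857.2, with its midpoint 2452 bp after the transcript start and its near edge 1169 bp from it. It had a signal value of 1.02 and a −log10 q of 1.66, and it consisted of 3 DpnII fragments, the stretches between neighbouring GATC sites. It held 3 B1 SINEs and 2 AP-1 core motifs, and the B1 closest to the transcript start, 95.0% identical to the consensus, adjoined one of the motifs. Of the 2166 peaks in the whole list with both elements, 71 (3.28%) had a motif inside or directly next to a B1. The predicted lncRNA *Gm51805*, on the opposite strand, also spans this position.

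Peak 2 of *Tet1* (chr10:62844733-62848188) lay in the 24429 bp intron 3 and was the longest of the 13 peaks at 3456 bp. It was also the weakest, with a signal value of 0.52 and a −log10 q of 1.04, and 4.21% of the whole list had a lower signal value. It held 4 B1 SINEs, a number reached by 1.02% of all peaks, and no AP-1 core motif. Peak 3 (chr10:62790352-62791172, 821 bp) lay 13398 bp downstream of *Tet1*, in intron 2 of *Ccar1*, a cell cycle and apoptosis regulator and transcriptional coactivator, 1606 bp from the *Ccar1* start. It had the highest signal value (1.18) and the highest −log10 q (1.88) of the 13, and 2 B1 SINEs, one of them cut by the peak edge. *Tet1* thus had both the strongest and the weakest of these peaks by signal value.

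*Tet2* (chr3:133463677-133544390, minus strand) is nearly as long as *Tet1* at 80714 bp, yet its nearest peak (chr3:133622778-133624626) was 78388 bp away. Among protein-coding genes, 40.5% had their nearest peak farther away than that. The B1 density around the gene was 2.21 per 10 kb, against a median of 1.65 over protein-coding genes. It was 7.11 around *Tet1*, 2.42 around *Tet3*, which held 2 peaks, and 3.71 around *Dnmt3l*, which had no peak within 50 kb.

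*Tet3* (chr6:83362373-83456392, minus strand) held 2 short peaks inside the gene and none in its flanks. Peak 1 (chr6:83443468-83444034, 567 bp) lay in intron 2 of the long transcript NM_001347313.1, upstream of the start of the shorter NM_183138.2 by 2073 bp at its midpoint, and within intron 2 of the lncRNA *B230319C09Rik* on the opposite strand. Its signal value was 0.94 and its −log10 q 1.57. Peak 2 (chr6:83441048-83441487, 440 bp) began 191 bp after the start of NM_183138.2, the smallest distance to a transcript start among the 18 starts of the 9 genes. It spanned the whole 57 bp exon that is coding exon 3 of the long transcript and untranslated exon 2 of the short one, and its midpoint fell in the promoter window of *B230319C09Rik*. It had a signal value of 1.04 and a −log10 q of 1.09. It was the only one of the 13 peaks that met an exon of one of the 9 genes and the only one with its midpoint in a promoter, a class that held 2.31% of all peaks.

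The *Tet3* peaks differed from the other 11 in content. Neither held a B1 SINE or an AP-1 core motif, which was so in no other of the 13, and the nearest B1 was 12449 and 10029 bp away. In the whole list, 37.4% of peaks held neither element. Both *Tet3* peaks were short, with 3.72% and 1.36% of all peaks shorter. In the shortest length quintile 23.2% of peaks held a B1 and 26.8% a motif. Their GC contents of 58.9% and 57.5% were the highest of the 13, where the median of all peaks was 43.5%. Only 0.589% of the list had a higher GC content than peak 2.

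*Dnmt1* (chr9:20907206-20959888, minus strand) is the maintenance methyltransferase gene and had 1 peak inside and 1 upstream. Peak 2 (chr9:20954155-20956221, 2067 bp) was a single fragment in intron 1 of NM_001199432.1, the transcript with the most upstream start, and lay between this start, 3667 bp away, and the next one, 1176 bp away. The 4 other curated transcripts begin downstream of it. It had a signal value of 1.05, a −log10 q of 1.19 and 1 B1 SINE of 94.7% identity. Peak 1 (chr9:20977490-20978833, 1344 bp) was intergenic, 17602 bp upstream of *Dnmt1*, with a signal value of 0.83, a −log10 q of 1.56 and 1 B1. *Zfp266* itself lies on the same chromosome, 386 kb away, and the 5 peaks over it, with signal values up to 8.66, lie on sequence that the plasmid also carries.

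*Dnmt3a* (chr12:3806980-3914443, plus strand), a de novo methyltransferase gene, had both of its peaks in the same intron. Peak 1 (chr12:3828080-3829157, 1078 bp) and peak 2 (chr12:3830166-3833261, 3096 bp) lay in the 27906 bp intron 1 of NM_007872.4, with midpoints 21638 and 24733 bp after the gene start. Their signal values of 0.73 and 0.87 were both below the median of 0.898 over all peaks, while the −log10 q of 1.58 for peak 2 was above the median of 1.33. Peak 1 held 1 B1 SINE of 79.3% identity and peak 2 held 2, of 76.7% and 93.9%. Neither held an AP-1 core motif.

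**Figure D2:**
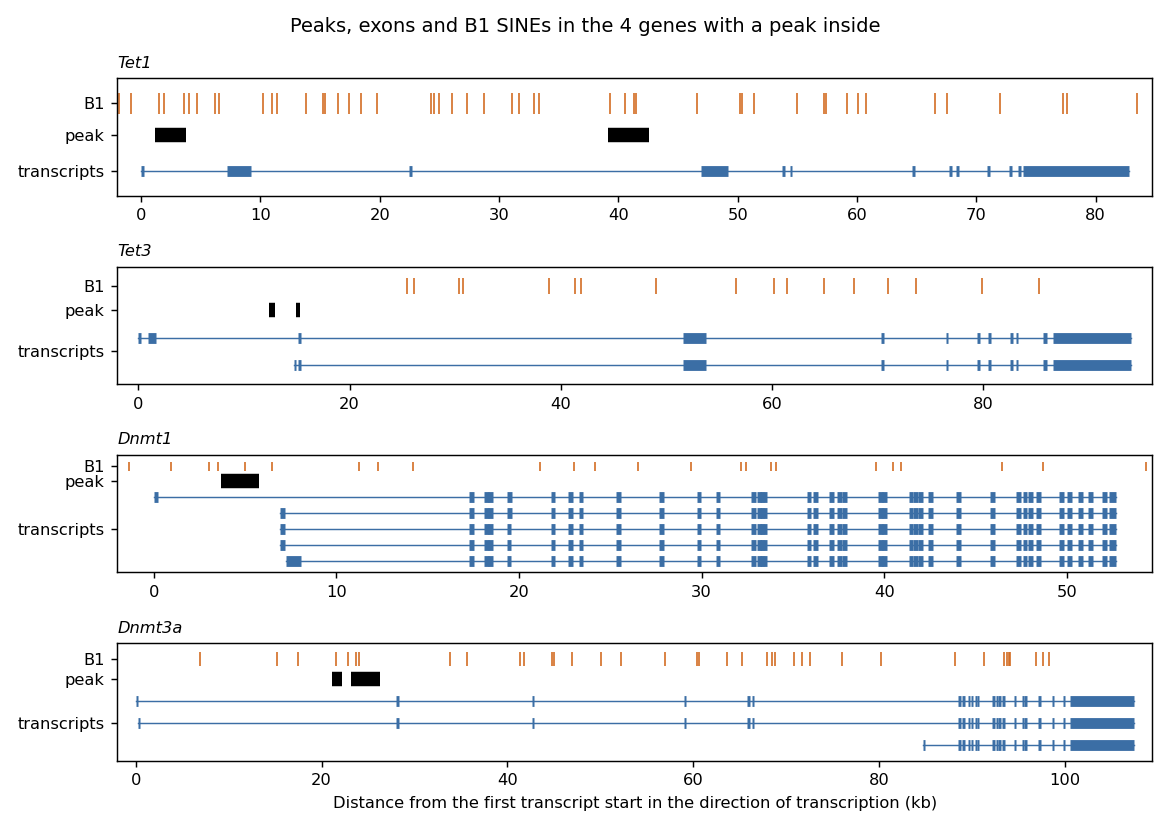
Curated transcripts (blue, exons as blocks), peaks (black) and B1 SINEs (orange) in the 4 genes with a peak inside, with distance in kb from the first transcript start in the direction of transcription on the x axis. The peaks of *Tet1*, *Dnmt1* and *Dnmt3a* lie in introns, and a *Tet3* peak spans an exon close to the start of the shorter transcript.

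*Dnmt3b* (chr2:153649449-153687730, plus strand), the other de novo methyltransferase gene, had no peak inside. Its 2 peaks were 26022 and 33193 bp downstream and both fell within *Dnmt3b-ps1*, which RefSeq places at chr2:153706484-153730013 as a pseudogene and lists under the synonym *Dnmt3c*, known as a germline methyltransferase that arose by duplication of *Dnmt3b*. Peak 1 (chr2:153713752-153714264, 513 bp) had a signal value of 1.14 but a −log10 q of 1.04, with 1 B1 SINE and 1 AP-1 core motif. Peak 2 (chr2:153720923-153722160, 1238 bp) had a signal value of 0.91, a −log10 q of 1.27, no B1 and 2 AP-1 core motifs. Against *Dnmt3b* itself, the best match of peak 1 was 169 bp at 84.0% identity, and that of peak 2 was 97 bp at 81.4%. The match of peak 1 lay at chr2:153652744-153652911, over a B1 SINE of *Dnmt3b*, and peak 1 holds a B1 SINE too. It thus cannot tell similarity of the duplicated genes from similarity between B1 copies. How reads that align to more than 1 place were counted is not given in the sources used here.

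*Dnmt3l* (chr10:78042287-78063622, plus strand) was the gene farthest from a peak. Its nearest peak was 233927 bp away, and 16.9% of protein-coding genes were farther from theirs. Its 121336 bp window held 45 B1 SINEs and 17 AP-1 core motifs, but no peak in which they could lie.

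*Uhrf1* (chr17:56303337-56323486, plus strand), whose product recruits DNMT1, had 1 intergenic peak 36550 bp upstream (chr17:56264796-56266787, 1992 bp). This peak had a signal value of 1.08, a −log10 q of 1.78 and 2 DpnII fragments. It held 1 B1 SINE of 89.5% identity 48 bp from its midpoint, and 3 AP-1 core motifs, a number that 4.85% of all peaks reached. *Tdg* (chr10:82629838-82650799, plus strand) had 1 peak 32945 bp downstream (chr10:82683744-82685800, 2057 bp), in intron 1 of *Glt8d2*, a glycosyltransferase gene that is transcribed from the opposite strand. It had a signal value of 1.01 and a −log10 q of 1.36, and its only B1 reached 42 bp into the peak at one edge.

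The members' peaks were neither the strongest nor the longest of the list. Their signal values ran from 0.52 to 1.18 with a median of 1.01, against 0.898 over all peaks, and 9 of the 13 were above that value. Their −log10 q ran from 1.04 to 1.88, with 7 of the 13 above 1.33, the median of the list. Their lengths ran from 440 to 3456 bp with a median of 1344 bp, against 1777 bp over all peaks. A single DpnII fragment made up 7 of the 13 peaks, where the share over all peaks was 55.7%. A q under 0.05 together with a signal value above 1 was reached by 4 of them, Tet1 peaks 1 and 3, Uhrf1 peak 1 and Tdg peak 1, and by 26.4% of the whole list, while 9 of the 13 missed it. Such limits are the example that the methods give for a bound region, with a log2 fold change named there where the list has a signal value. *Tet1* was the only one of the 9 genes with such a peak inside. The scale of the signal value is not stated for the list, so it is compared only within it.

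**Figure D3:**
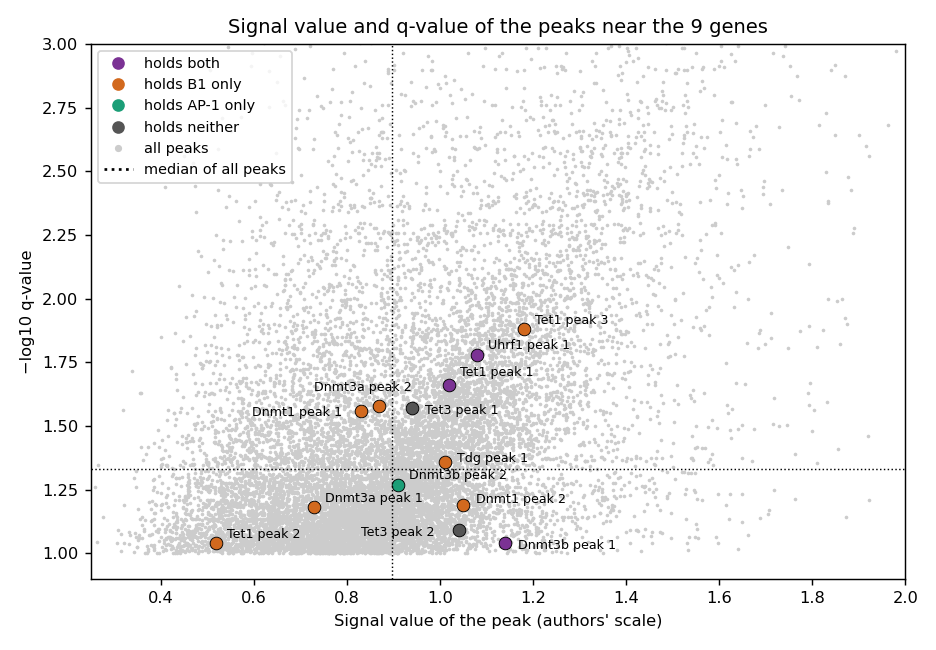
Signal value (x axis, the authors' scale) and −log10 q-value (y axis) of the 13 peaks, coloured by what they hold, over all peaks in grey, of which 331 lie beyond the axes. Dotted lines are the medians of all peaks, 0.898 and 1.33, and Tet1 peaks 3 and 2 mark the upper and lower end of the signal values near the 9 genes.

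By their midpoints, 8 of the 13 peaks were intronic, 4 intergenic and 1 in a promoter, and none was in an exon by this rule, in which a promoter goes before an exon. Over all peaks 45.7% were intronic and 49.9% intergenic. The 13 peaks were chosen for lying in or near genes, so their places are not comparable with these shares. Both *Dnmt3b* peaks count as intergenic because *Dnmt3b-ps1* has no curated transcript. Of the 6 peaks with their midpoint in an intron of one of the 9 genes, 4 lay in intron 1 of a curated transcript (Tet1 peak 1, Dnmt1 peak 2 and both of *Dnmt3a*). Among all intronic peaks that share was 55.9%, so 4 of 6 lies near it. RefSeq promoter sequences matched all 9 genes with 16 windows of 300 bases around transcript starts. A peak overlapped 0 of these windows, against 2.14% of the 32851 windows of all genes, and an AP-1 core motif was in 0 of them, against 5.20%.

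A B1 SINE, taken as a match of at least 80 bp at 70% identity to the consensus, was in 10 of the 13 peaks, against 32.7% of all peaks. The shares of equally long peaks, by length quintile, add up to 4.08 peaks. The 3 without a B1 were both *Tet3* peaks and Dnmt3b peak 2. The 10 peaks held 17 B1 SINEs with identities from 72.0% to 95.7%, 15 of them wholly inside the peak. The 3 peaks at *Tet1* accounted for 9 of the 17. In the plot of the peak content, the single B1 copies of Dnmt3a peak 1, Uhrf1 peak 1 and Dnmt3b peak 1 and 1 of the 2 in Tet1 peak 3 are centred within 100 bp of the midpoint, while those of Tet1 peaks 1 and 2 are spread over the peak.

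**Figure D4:**
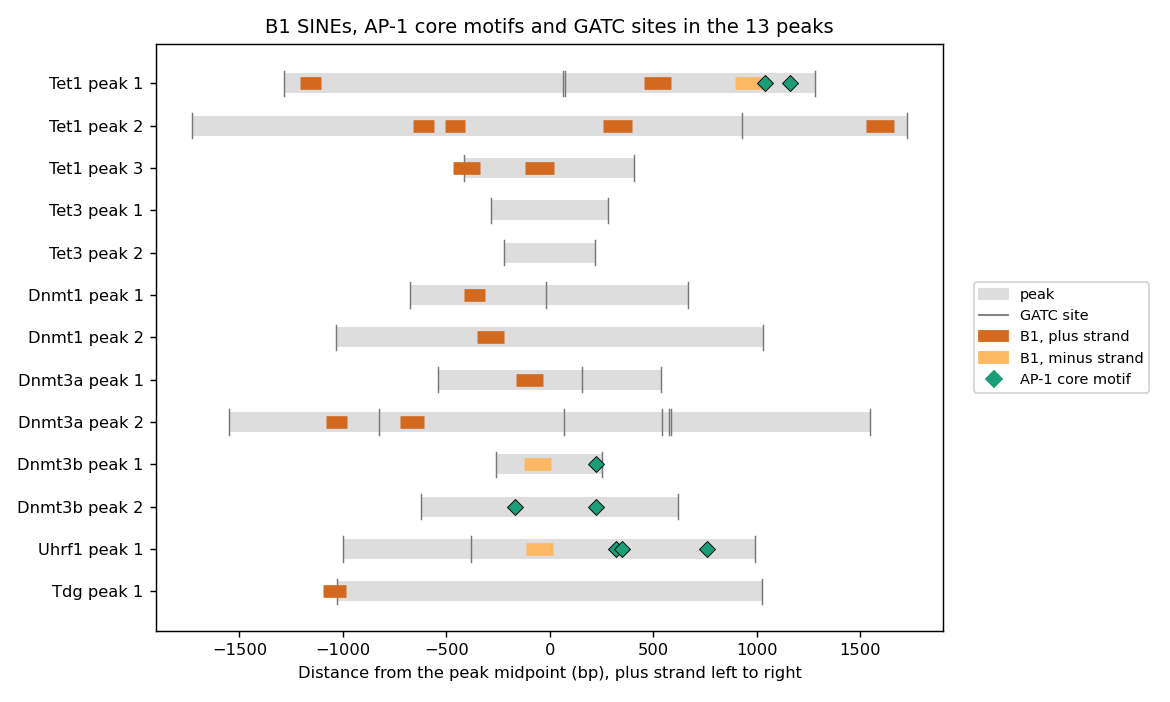
The 13 peaks as grey bars, aligned on their midpoints (x axis, distance in bp with the plus strand from left to right), with GATC sites as grey ticks, B1 SINEs as orange bars by strand and AP-1 core motifs as green diamonds. B1 SINEs are in 10 of the peaks and AP-1 core motifs in 4, and the *Tet3* peaks hold neither.

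The surroundings of the 13 peaks are themselves rich in B1 SINEs beside those of all peaks. Within 50 kb of the midpoints there were 22 to 75 B1 SINEs, where the median over all peaks was 12. Of the 13 peaks, 8 fell in the quintile with the most B1 SINEs around them and 5 in the next. In these quintiles 63.7% and 43.8% of all peaks held a B1, and of the members' peaks 8 of 8 and 2 of 5 did. The shares add up to 7.29 peaks, beside the 10 observed, and this division was chosen after the values had been seen. The 9 genes differed in this. *Tet1* stood highest, with 130 B1 SINEs in its window (7.11 per 10 kb, above 99.8% of protein-coding genes), and *Tdg* lowest, with 1.57 per 10 kb, against a median of 1.65. *Tet2* and *Tet3*, with 2.21 and 2.42, lay above 60.2% and 63.5% of protein-coding genes. Inside *Tet1*, 7 of 46 B1 SINEs were in a peak. Over the windows of the 9 genes, 17 of 538 (3.16%) were, against 2.55% of the 278462 B1 SINEs of the genome. Peaks also covered more of these windows, 1.5% of their bases against 1.18% of the genome. Most B1 copies near these genes were thus outside peaks. The part of B1 density in the B1 content of the peaks was not tested.

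**Figure D5:**
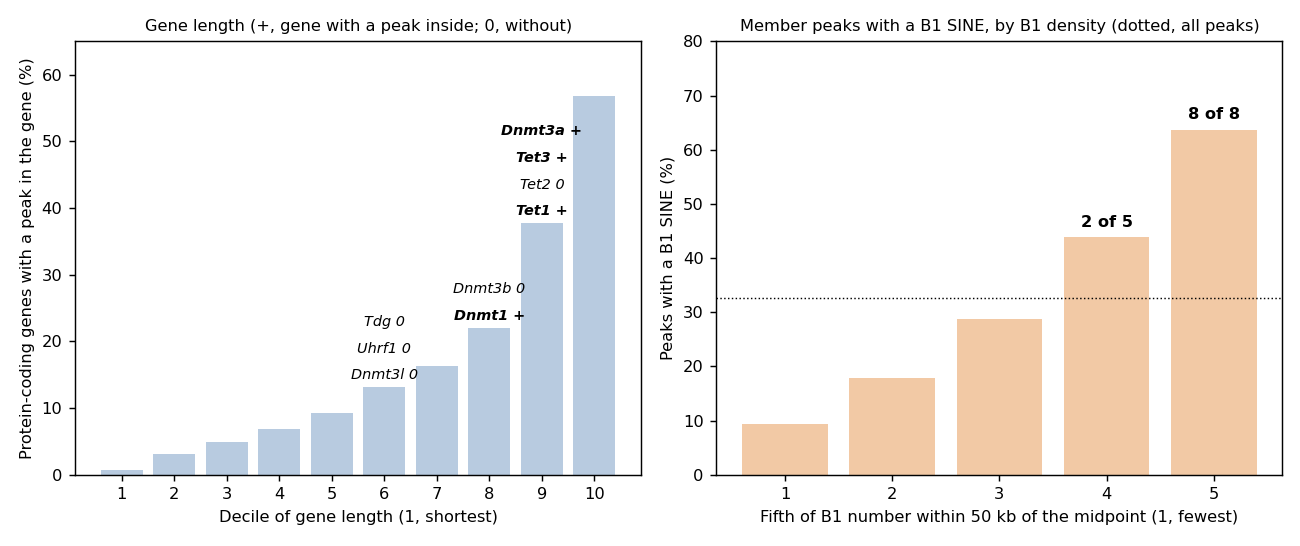
Left, share of protein-coding genes with a peak in the gene (y axis, %) by decile of gene length (x axis), with the 9 genes written above their decile and a plus sign where a peak lies inside. Right, share of all peaks with a B1 SINE (y axis, %) by quintile of the number of B1 SINEs within 50 kb of the midpoint (x axis), with the members' peaks holding a B1 written above the bars, 2 of 5 and 8 of 8, and the 32.7% of all peaks as a dotted line.

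An AP-1 core motif was in 4 of the 13 peaks (30.8%), against 44.2% of all peaks, and the shares of equally long peaks add up to 5.38 peaks. The 4 were Tet1 peak 1 and Uhrf1 peak 1, both with a B1 SINE, and the peaks in *Dnmt3b-ps1*, one with and one without. In the *Tet1* peak the motifs were 1039 and 1164 bp from the midpoint on the side of the transcript start, and in the *Uhrf1* peak they were 321 to 759 bp from it. Both elements occurred together in 3 of the 13 peaks, against 14.3% of all peaks, a B1 alone in 7 (18.4%), a motif alone in 1 (29.9%) and neither in 2 (37.4%). Of the 255 core motifs in the windows of the 9 genes, 8 (3.14%) lay in a peak, against 2.37% in the genome. As given above, peaks covered 1.5% of these windows and 1.18% of the genome. A match to these letters is no measure of AP-1 binding.

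Of 31 further genes of the pathway, 30 had curated transcripts, and 5 of these had a peak inside and 18 within 50 kb, beside 17.1% and 49.7% of all protein-coding genes. The 5 of 30 is at the share of all genes. The 5 were *Apobec1*, an RNA and DNA cytosine deaminase gene, *Mbd2*, a reader of methylated DNA, *Uhrf2*, the paralogue of *Uhrf1*, *Usp7*, a deubiquitinase gene that stabilises DNMT1 and UHRF1, and *Trdmt1*, a tRNA methyltransferase gene of the DNMT family. Each of their peaks was intronic. The *Uhrf2* peak (chr19:30057000-30062107) was 5108 bp long and held 2 B1 SINEs and 3 AP-1 core motifs at a signal value of 0.44. The *Mbd2* peak held neither element, the *Apobec1* and *Usp7* peaks held 1 B1 each, and the *Trdmt1* peak held 1 of each. Among the 5 TET partners and cofactor enzymes and the 9 base excision genes, 0 had a peak inside, while 2 and 4 had one within 50 kb. Of the base excision genes, the closest to a peak lay only 27 bp from it.

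The 50 kb limit fell between the *Uhrf1* peak, 36550 bp from its gene, and a peak 58191 bp downstream of *Dnmt3a* (chr12:3972634-3974566), which lay in *Efr3b* and was left out. That peak had a signal value of 1.91, a −log10 q of 3.74, no B1 SINE and 18 AP-1 core motifs, and was stronger on both measures than any of the 13. Within 100 kb there were 7 more peaks, 3 of them near *Dnmt1*, 2 near *Dnmt3a* and 1 each near *Tet2* and *Dnmt3b*.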

How the data were processed

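DamID-seq was measured in 10 MEF samples, 5 with Dam-ZFP266 and 5 with Dam only. The authors trimmed adapters with Cutadapt, aligned to GRCm38.p6 with BWA, assigned reads to DpnII fragments (Rsubread) and passed these counts to Daim for the peak calls. Their versions are not given in the sources used here. The deposited list holds for each peak a score and a signal value, both as Daim gave them, and a −log10 p-value and −log10 q-value that the authors computed, of which the p-value was not used. The list pools the samples, so read depth and replicate spread are unknown, and no value of one sample was used. All 15119 peaks start and end 2 bases into a GATC of GRCm38.p6, and the largest q was 0.1.

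Gene extents are those of curated RefSeq transcripts. A peak counted if it shared 1 base with the gene, or with the gene widened by 50 kb. Places follow the midpoint, with promoters from 1000 bp before to 100 bp after a start. The B1 consensus came from 687 copies on chromosome 19 holding the 14-base word of 7SL RNA (Rn7s1) that is most frequent there, by majority, and blastn 2.17.0 (word size 11, e-value 10) found its copies. AP-1 matches are exact, on both strands. Gene length deciles and peak length quintiles gave the shares set beside the members. No test was made. Python 3.11.15 with pandas 2.3.3 and numpy 2.4.6 was used, and the steps were tested on simulated data. The text names the 9 genes, pathway genes with a peak inside, and other genes that hold the midpoint of a peak near the 9. *Efr3b* and *Zfp266* were added after their values were seen. The genes and lists were chosen with earlier results of these data known. Alternatives covered peak thresholds, overlap, annotation, window and element definitions. Expression and chromatin accessibility were not analysed here.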

Additional observations from a re-analysis of the deposited data

How the results depend on the processing

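No paired analysis was possible because the list pools all 10 samples, although the labels number the samples of both groups 1 to 5, and for the same reason no sample could be left out. Counting a peak by its midpoint, or adding predicted transcripts, left 4 genes with a peak inside, 7 with one within 50 kb and 13 peaks. With only the peaks of q under 0.05 and signal above 1, 1 gene had a peak inside (*Tet1*) and 3 had one within 50 kb, with 4 peaks, 4 with a B1 SINE and 2 with an AP-1 core motif, where 6.0% and 21.9% of all genes and 34.5% and 38.2% of such peaks did. With the peaks of a score above the median, 3 genes had a peak inside and 6 within 50 kb (10.4% and 32.7% of all genes), and of 7 peaks 6 held a B1 and 2 a motif (36.0% and 46.7% of such peaks). A window of 10 kb gave 4 genes (27.2% of all genes) and 7 peaks, 5 with a B1 and 1 with a motif, and one of 100 kb gave 8 genes (65.4%) and 20 peaks, 13 with a B1 and 7 with a motif. Peaks of 2 or more DpnII fragments, a choice made after seeing the data, left 2 genes with a peak inside, 4 within 50 kb (10.2% and 30.8% of all genes) and 6 peaks, 6 with a B1 and 2 with a motif (39.4% and 58.5% of such peaks). These smaller or larger sets change the counts by construction. B1 definitions from at least 50 bp at 70% to at least 100 bp at 85% gave 10 and 9 peaks (35.2% and 23.6% of all peaks), and B1 SINEs within 500 bp of the midpoint 8 (20.8%). With any base in the middle of the AP-1 core, 6 peaks held a motif (57.8%), and within 500 bp of the midpoint 3 did (26.9%).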
